A study of Mus musculus with 6 samples.

Results

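The genes described here encode the machinery that receives interferons: the receptor chains Ifnar1 and Ifnar2 (type I interferons) and Ifngr1 and Ifngr2 (interferon gamma), the kinases Jak1 and Tyk2, the transcription factor subunits Stat2 and Irf9, and the inhibitor Usp18. These 9 genes were chosen by symbol for their role, and each matched 1 row of a count table of 57010 Ensembl identifiers. RNA sequencing compared CT26 cells, a cultured line from a mouse colon carcinoma, that carried a control guide RNA (sgControl, 3 libraries) with CT26 cells whose guide RNA targeted Cdk10, which encodes a cyclin-dependent kinase (sgCdk10, 3 libraries). The labels name no treatment, no interferon and no difference between the groups other than the guide. They do not give the guide sequence, do not state whether the cells were a clone or a pool, and do not say whether replicates were separate cultures. The p-values therefore reflect only variation among these 6 libraries, some or all of which may be technical.

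Interferons act through paired receptor chains on the cell surface, each of which carries a Janus kinase. The type I receptor joins IFNAR1, which binds TYK2, to IFNAR2, which binds JAK1, and signals through the complex ISGF3, which holds STAT2 and IRF9 and activates genes with an interferon-stimulated response element (ISRE). The receptor of interferon gamma joins IFNGR1, which binds JAK1, to IFNGR2, which binds JAK2, and acts mainly through gamma-activated sites (GAS) in its target genes. USP18, itself induced by interferon, binds IFNAR2 and dampens type I signalling. The study asked, by its title, whether CDK10 restrains immunity to tumours that nucleic acid sensors set off. Tumour cells need these receptors to respond to interferon from their surroundings.

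Library totals lay between 17532202 and 19258309 counts. Cdk10 was lower in the cells with its guide, from 381, 344 and 365 counts to 204, 227 and 202 (log2 fold change -0.82, SE 0.08; edgeR adjusted p = 8.42e-09), and its exons overlap those of Spata2l on the opposite strand. sgControl replicate 3 stood apart on the second principal component, which held 16.5% of the variance. Calls of named genes that changed without it are given beside those genes, and counts within the gene lists in the section on processing. Of 11 markers of colon epithelium 3 were expressed enough to be tested, and the defining marker Epcam had 0 counts in all 6 libraries. All 5 mesenchymal markers were tested, with a summed level of 5356 to 5485 CPM (counts relative to the scaled library total) in sgControl and 5641 to 5861 in sgCdk10. Of these Fn1 (log2 fold change 0.37) and Col1a1 (0.27) rose, Col3a1 fell by 0.41, and Vim (-0.04) and Pdgfrb (0.10) were not called. Among the colon markers Krt18 (log2 fold change 0.65) and Krt20 (0.51) rose. Muc2 fell by 0.93 at low counts, 13, 16 and 16 in sgControl and 7, 8 and 9 in sgCdk10. The summed level of the 11 ran from 37.0 to 40.8 CPM in sgControl and from 58.1 to 59.4 in sgCdk10. Most of this sum came from Krt18 (mean 24.0 CPM in sgControl and 37.5 in sgCdk10) and Krt20 (13.7 and 19.5). Of 17 leukocyte markers 3 were tested (Cd14, Cd68 and Cd74), 5 had 0 counts in every library, and the pan-leukocyte gene Ptprc had at most 2 counts in any library. The summed level of these 17 markers ran from 50.7 to 57.1 CPM in sgControl and from 57.1 to 60.0 in sgCdk10, and without Cd68 from 41.9 to 48.6 and from 44.1 to 46.6. Whether the shifts in these markers had a part in the results below was not tested.

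Both chains of the interferon gamma receptor, Ifngr1 and Ifngr2, rose in sgCdk10, 1.29-fold and 1.36-fold, while the type I receptor chains, both kinases, Stat2, Irf9 and Usp18 did not pass the test. In counts, 2 of the 9 genes rose, 0 fell and 7 were not called by edgeR's quasi-likelihood test, at a Benjamini-Hochberg adjusted p under 0.05 over the 13442 genes tested. The background for this count is high: 42.5% of all tested genes were called, 22.1% as higher and 20.4% as lower. The share of members called higher, 22.2%, was near that background, so the number of calls is not a result about these genes as a group. Their median log2 fold change was 0.06, against -0.0031 over all tested genes. All 9 genes passed the filter on low counts. In RNA from whole cultures, a higher level in each cell and a larger share of cells with a high level cannot be told apart.

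Ifngr1 encodes the chain that binds interferon gamma with high affinity. Its level was 17.5, 19.6 and 18.7 CPM in the sgControl libraries and 23.8, 23.2 and 24.7 CPM in the sgCdk10 libraries. Every sgCdk10 library was above every sgControl library. The means were 18.6 ± 1.03 and 23.9 ± 0.728 CPM (SD, n = 3), a 1.29-fold difference with a 95% interval of 1.18 to 1.41 (log2 fold change 0.36, SE 0.06; edgeR adjusted p = 4.75e-05). Ifngr1 (ENSMUSG00000020009) occupies chromosome 10 from 19591949 to 19610229 (GRCm38, plus strand) and has 8 merged exons. No exon of another annotated gene overlaps it.

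Ifngr2 encodes the accessory chain, which completes the receptor and brings JAK2 to it. Its level was 15.8, 15.3 and 15.1 CPM in sgControl and 19.7, 21.9 and 21.1 CPM in sgCdk10, again with no overlap between the groups. The means were 15.4 ± 0.379 and 20.9 ± 1.14 CPM (SD, n = 3), a 1.36-fold difference with a 95% interval of 1.23 to 1.49 (log2 fold change 0.44, SE 0.07; edgeR adjusted p = 1.01e-05). Of the 2970 genes called higher in sgCdk10, 26.8% had a larger fold change than Ifngr2 and 35.0% a larger one than Ifngr1, and their median log2 fold change was 0.27. Both rises are thus above the middle of a large set of moderate rises. Ifngr2 (ENSMUSG00000022965) occupies chromosome 16 from 91547072 to 91565623 (GRCm38, plus strand), with 8 merged exons and no overlap with exons of another gene. The plot of CPM by library shows these rises beside the 7 genes that were not called.

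**Figure D1:**
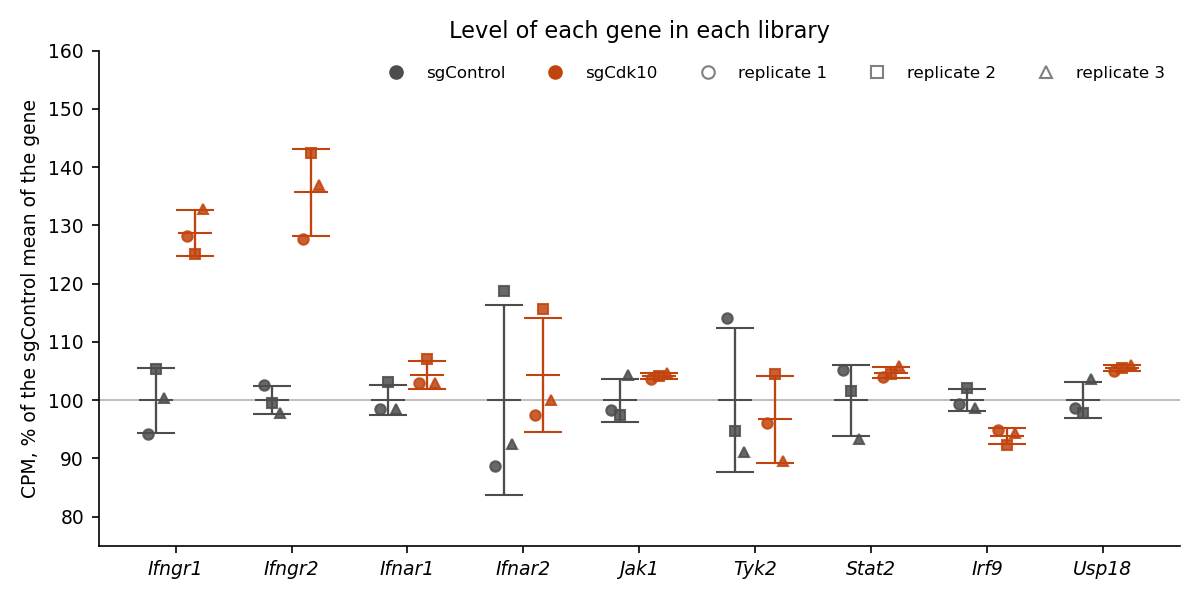
Level of each gene in each of the 6 libraries, as a percentage of the mean CPM of that gene in sgControl; points are libraries, with the marker shape giving the replicate number, and bars are mean and SD over 3 libraries. The sgCdk10 libraries of Ifngr1 (23.2 to 24.7 CPM) and Ifngr2 (19.7 to 21.9 CPM) sit above all sgControl libraries, whereas the spread of Ifnar2 and Tyk2 covers both groups.

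The sequences upstream of these genes are printed because the chains that both rose, Ifngr1 and Ifngr2, lie on different chromosomes and can be compared for letters they share. The 250 bases before the RefSeq start (GRCm38.p6) were read for 8 of the 9 genes, with 2 starts for Irf9 and none for Usp18. Capitals mark matches, on either strand, to the ISRE core GAAANNGAAA, the GAS core TTCNNNGAA, the GC box GGGCGG and the CCAAT box CCAAT. Ifngr1 and Ifngr2 are shown as the genes that rose, and Ifnar2 and Stat2 as uncalled genes that hold the only GAS and ISRE matches found among these windows.
Ifngr1, chr10:19591699-19591948, plus strand: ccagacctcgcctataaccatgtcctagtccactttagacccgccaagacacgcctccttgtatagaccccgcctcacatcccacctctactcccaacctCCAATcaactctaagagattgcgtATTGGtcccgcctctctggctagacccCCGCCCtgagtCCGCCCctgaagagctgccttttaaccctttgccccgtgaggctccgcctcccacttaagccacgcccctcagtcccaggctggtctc
Ifngr2, chr16:91546809-91547058, plus strand: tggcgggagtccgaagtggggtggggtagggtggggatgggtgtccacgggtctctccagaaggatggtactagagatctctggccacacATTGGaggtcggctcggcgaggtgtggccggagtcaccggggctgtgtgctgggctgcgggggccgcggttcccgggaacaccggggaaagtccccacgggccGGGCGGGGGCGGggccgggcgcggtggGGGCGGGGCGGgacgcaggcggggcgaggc
Ifnar2, chr16:91372533-91372782, plus strand: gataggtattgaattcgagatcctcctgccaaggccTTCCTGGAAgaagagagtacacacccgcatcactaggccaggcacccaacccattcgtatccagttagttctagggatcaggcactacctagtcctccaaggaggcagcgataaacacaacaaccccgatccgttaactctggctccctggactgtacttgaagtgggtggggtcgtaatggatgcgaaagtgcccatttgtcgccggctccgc
Stat2, chr10:128270248-128270497, plus strand: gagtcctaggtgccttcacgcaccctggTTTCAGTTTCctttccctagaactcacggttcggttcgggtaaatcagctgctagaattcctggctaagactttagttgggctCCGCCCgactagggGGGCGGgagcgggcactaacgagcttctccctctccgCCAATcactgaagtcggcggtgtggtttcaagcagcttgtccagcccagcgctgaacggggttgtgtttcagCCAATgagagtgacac

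The window of Ifngr1 held 2 GC boxes and 2 CCAAT boxes, and that of Ifngr2 held 4 GC boxes and 1 CCAAT box. Their GC content was 59.2% and 74.0%, against a median of 52.4% over all 32851 windows of the same length. The windows of the uncalled genes were also all above that median, from 53.6% (a start of Irf9) to 65.6% (Ifnar1). A GC box occurred in 7 of the 9 windows read and in 32.7% of all windows, and a CCAAT box in 5 of 9 and in 33.8%, so both motifs were present in called and uncalled genes alike. The ISRE core occurred in Stat2 alone, 222 bases before the start, and in 2.98% of all windows. The GAS core occurred in Ifnar2 alone, 214 bases before the start, and in 7.02% of all windows. These matches are letters in a window and were not measured as binding sites.

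Ifnar1 and Ifnar2, the chains of the type I receptor, did not pass the test. Ifnar1 had 49.7, 52.0 and 49.7 CPM in sgControl and 51.9, 54.0 and 52.0 in sgCdk10. The groups overlapped, with means of 50.4 ± 1.33 and 52.6 ± 1.21 CPM (SD, n = 3; log2 fold change 0.06, SE 0.04; edgeR adjusted p = 0.280). The 95% interval of its fold change ran from 0.980 to 1.11 and so includes a rise of up to 1.11-fold. Ifnar2 was the least abundant member, with 89, 119 and 95 counts in the control libraries and 100, 115 and 109 in the others. The groups overlapped fully. These counts correspond to 5.67 ± 0.928 and 5.91 ± 0.556 CPM (SD, n = 3; edgeR adjusted p = 0.743), with a 95% interval of the fold change from 0.864 to 1.26. That interval is the widest among the members. It ends below the fold changes of Ifngr1 (1.29) and Ifngr2 (1.36) but overlaps their 95% intervals, which start at 1.18 and 1.23. Part of the Ifnar2 exons, 9.46% of their length, is shared with the predicted gene Gm21970 on the same strand, which had 0 counts.

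Ifnar2, Ifnar1 and Ifngr2 are neighbours on chromosome 16 of GRCm38. Ifnar2 spans 91372783 to 91405589, followed by Il10rb, which encodes a chain of the interleukin-10 and type III interferon receptors, then by Ifnar1 from 91485238 to 91507441, and 39.6 kb further by Ifngr2. Il10rb had only 3, 3 and 3 counts against 6, 5 and 5, too few to be tested. Of 11 neighbouring genes 7 were tested, 1 rose and 1 fell, a share called of 28.6% against 42.5% of all tested genes, with a median log2 fold change of -0.03. The splicing factor gene Son rose by 0.13 (edgeR adjusted p = 0.0004), a call not made with the correction for GC content and length (edgeR adjusted p = 0.171). The oxidoreductase-like gene Cryzl1 fell by 0.47 (edgeR adjusted p = 2.06e-08), and 9.80% of its exon length overlaps an antisense gene. Tmem50b, the tested gene closest to Ifngr2 on its other side, was at 0.17 on the log2 scale (edgeR adjusted p = 0.0724), with all sgCdk10 values above all sgControl values. It was called higher in 2 of 15 settings, namely without sgControl replicate 3 (0.20; edgeR adjusted p = 0.0374) and with the correction for GC content and length (0.18; edgeR adjusted p = 0.0393). Donson was at -0.09 (edgeR adjusted p = 0.345).

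Jak1, the kinase shared by both receptors, had the highest level of the 9 genes. Its SD was 4.61 CPM in sgControl and 0.711 CPM in sgCdk10. Its level was 122.6, 121.6 and 130.1 CPM in sgControl and 129.2, 130.0 and 130.6 in sgCdk10. The sgControl replicate 3 value lay among the sgCdk10 values, whereas the other sgControl values lay below them. With all libraries Jak1 was not called (log2 fold change 0.06, SE 0.03; edgeR adjusted p = 0.168; 95% interval of the fold change 0.993 to 1.09), and without sgControl replicate 3 it was (log2 fold change 0.09; edgeR adjusted p = 0.0170). Tyk2, the kinase on IFNAR1, had 36.0, 29.9 and 28.7 CPM in sgControl and 30.3, 32.9 and 28.2 in sgCdk10. sgControl replicate 1 was the highest of the 6 libraries and the groups overlapped. Its log2 fold change was -0.05 (SE 0.09; edgeR adjusted p = 0.674), and without sgControl replicate 1 it was 0.06. An antisense gene without counts overlaps 8.07% of the Tyk2 exon length.

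Stat2 and Irf9, which encode subunits of ISGF3, were not called. Stat2, which carries the transactivation domain of the complex, had 71.2, 68.7 and 63.1 CPM in sgControl and 70.3, 70.7 and 71.6 in sgCdk10. The groups overlapped, and the lowest value was that of sgControl replicate 3 (log2 fold change 0.07, SE 0.04; edgeR adjusted p = 0.226; 95% interval of the fold change 0.985 to 1.11). Without that library the log2 fold change was 0.02. Irf9, the DNA-binding subunit, had 49.1, 50.5 and 48.8 CPM in sgControl and 47.0, 45.6 and 46.7 in sgCdk10. All sgCdk10 values of Irf9 lay below all sgControl values, but the distance was small (log2 fold change -0.09, SE 0.04, 95% interval of the fold change 0.881 to 0.9999; edgeR unadjusted p = 0.0498, adjusted p = 0.1004). With the correction for GC content and length it was called lower (log2 fold change -0.11; edgeR adjusted p = 0.0321). On the same strand 2.28% of the Irf9 exon length overlaps Rnf31, an abundant gene.

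Usp18, the inhibitor and itself an ISGF3 target, had 31.3, 31.0 and 32.9 CPM in sgControl and 33.4, 33.5 and 33.7 in sgCdk10. The sgCdk10 values lay above the sgControl values by a narrow margin. The difference did not pass the test (log2 fold change 0.08, SE 0.05; edgeR adjusted p = 0.240; 95% interval of the fold change 0.980 to 1.14). Altogether 4 of the 9 genes had groups without overlap, 3 higher (Ifngr1, Ifngr2 and Usp18) and 1 lower (Irf9) in sgCdk10. Among all tested genes 51.3% had no overlap, 26.6% higher and 24.8% lower. The plot of fold changes sets the members beside the other Janus kinases and STATs.

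**Figure D2:**
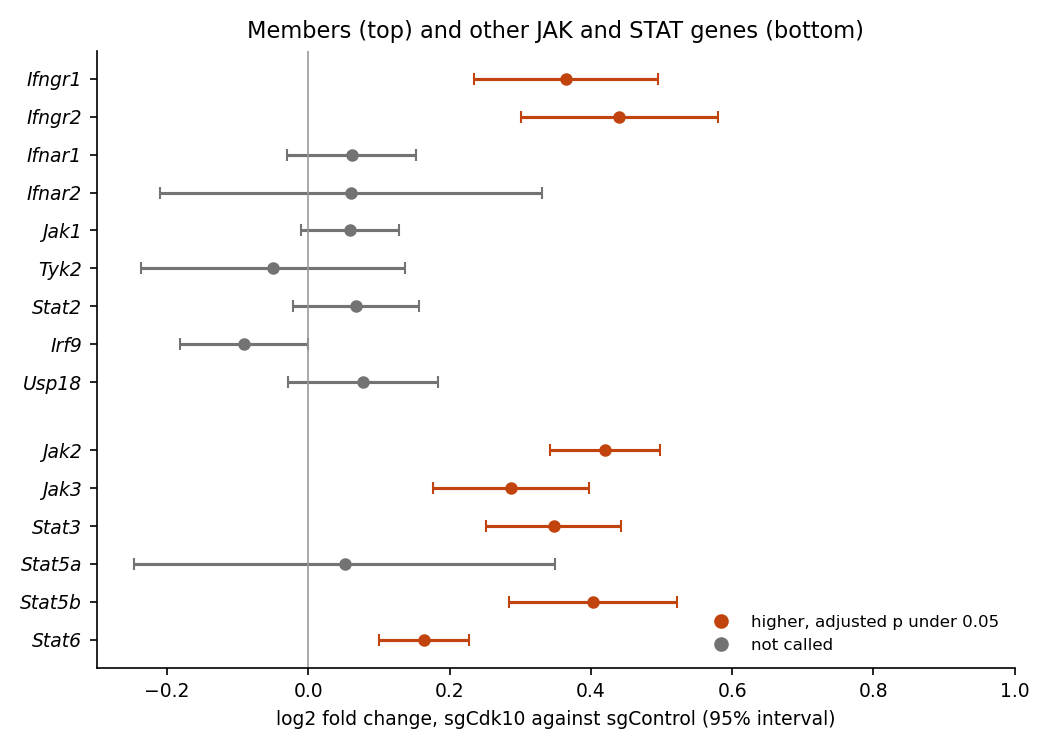
Log2 fold change of sgCdk10 against sgControl (x axis) with its 95% interval from the edgeR fit, for the 9 members above and 6 tested genes of the other Janus kinases and STATs below. Ifngr1 (0.36) and Ifngr2 (0.44) stand apart from 0, and among the lower genes only the interval of Stat5a spans 0. The interval of Irf9, which was not called, runs from -0.18 to just below 0 (-9.28e-05).

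Most other genes of the kinase and STAT families rose. Of 7 further Janus kinase and STAT genes 6 were tested, 5 rose and 0 fell, or 83.3% called higher against 22.1% of all tested genes, with a median log2 fold change of 0.32. With the correction for GC content and length the same number rose, with a median of 0.21. Jak2, the kinase on IFNGR2, had 83.1, 83.8 and 89.7 CPM in sgControl and 114.0, 118.2 and 111.3 in sgCdk10 (log2 fold change 0.42, SE 0.04; edgeR adjusted p = 2.26e-09). Stat3, the main STAT of the interleukin-6 family, rose from 41.2 ± 0.345 to 52.5 ± 2.18 CPM, and Jak3 from 25.9 ± 0.564 to 31.5 ± 0.535 (SD, n = 3; edgeR adjusted p = 1.39e-06 and 0.000115). The rise of Jak3 was 0.29 on the log2 scale and 0.14 with the correction for GC content and length (edgeR adjusted p = 0.0325). Stat5b rose by 0.40 on the log2 scale (edgeR adjusted p = 3.93e-06). Stat6, named after its values were seen, rose by 0.16. Stat5a was not called (edgeR adjusted p = 0.804), and Stat4 had 0 counts in all libraries. Exons of Stat3 overlap those of Stat5a on the opposite strand.

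Levels of different genes were compared per kb of merged exons. In sgControl the order of the members was Jak1 (17.3 ± 0.638 CPM per kb), Stat2 (11.4 ± 0.698), Usp18 (11.4 ± 0.354), Irf9 (9.18 ± 0.170), Ifnar1 (8.49 ± 0.224), Ifngr1 (6.52 ± 0.363), Tyk2 (4.59 ± 0.569), Ifngr2 (4.09 ± 0.101) and Ifnar2 (1.70 ± 0.279; SD, n = 3). Jak1 was 10.1 times as abundant per kb of merged exons as Ifnar2. Per kb of the longest transcript Jak1 had 25.4 and Ifnar2 1.86 CPM in sgControl, a larger ratio. Among neighbours in this order the ranges of Stat2 and Usp18 overlapped, and so did those of Tyk2 and Ifngr2, while the others did not. In sgCdk10 Ifngr2 (5.55 ± 0.303 CPM per kb) stood above Tyk2 (4.44 ± 0.343) with no overlap, and Ifngr1 (8.40 ± 0.256) overlapped Irf9 (8.62 ± 0.133). Both statements depend on the length taken. Per kb of the longest transcript Ifngr2 (5.64) stayed below Tyk2 (6.31) in sgCdk10, with overlap. Ifngr1 (11.3) then lay below Irf9 (12.0) without overlap. Per kb of merged exons the order also changed outside the interferon gamma receptor. In sgCdk10 Ifnar1 (8.86 ± 0.204) stood above Irf9 with no overlap, and Usp18 stood above Stat2 with overlap. These 2 changes depended on the length taken. Per kb of the longest transcript the mean of Ifnar1 was above that of Irf9 in sgControl (12.9 and 12.8) and in sgCdk10 (13.5 and 12.0). Usp18 was likewise above Stat2 in sgControl (17.9 and 15.4) and in sgCdk10 (18.9 and 16.1).

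**Figure D3:**
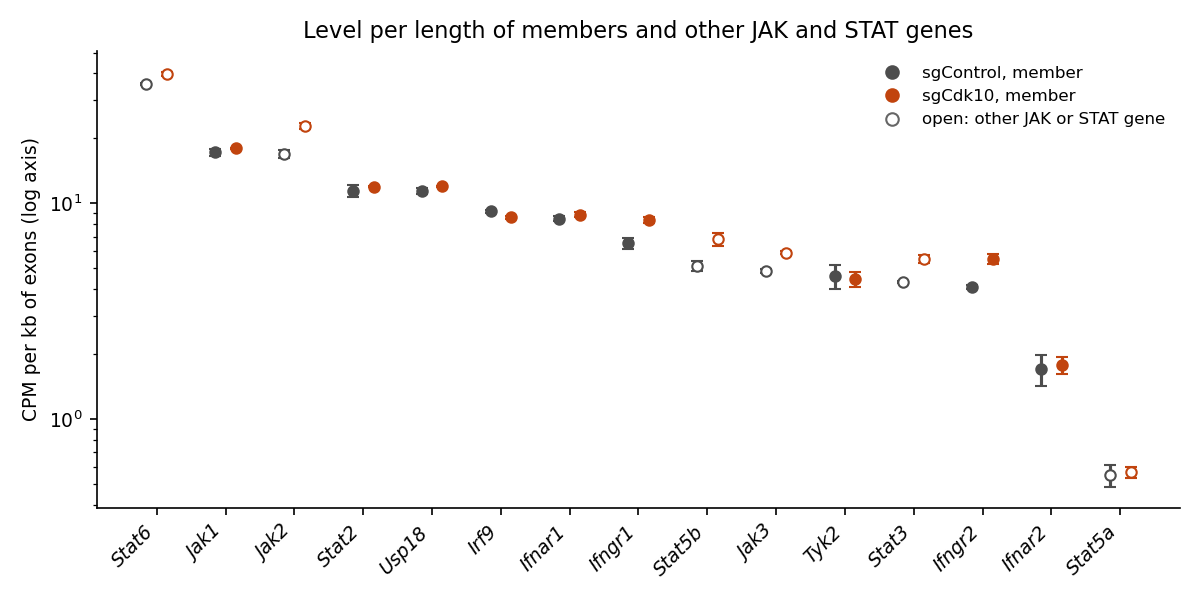
Mean CPM per kb of merged exons (log axis) in sgControl and sgCdk10, with SD over 3 libraries, for the 9 members (filled) and 6 other tested Janus kinase and STAT genes (open), ordered by sgControl. Ifngr1 rises from 6.52 to 8.40 and Ifngr2 from 4.09 to 5.55 CPM per kb, while Ifnar2 stays the lowest member in both groups.

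Ratios between partners within a library need no scaling between libraries. Their size depends on the exon length taken for each gene, which the SD does not cover. The difference between the groups in log2 ratio does not depend on it. For each of 5 pairs the log2 ratio of counts per kb was compared between the groups by a two-sided exact permutation test, which with 3 libraries against 3 cannot go below p = 0.1. The ratio of Ifngr1 to Ifngr2 was 1.60 ± 0.118 in sgControl and 1.52 ± 0.103 in sgCdk10 (SD, n = 3; exact p = 0.5), and the groups overlapped. Ifnar1 exceeded Ifnar2 5.06 ± 0.644-fold in sgControl and 5.01 ± 0.341-fold in sgCdk10 (SD, n = 3; exact p = 0.9). The ratio of Jak1 to Tyk2 was 3.80 ± 0.536 and 4.07 ± 0.323 (exact p = 0.6), and that of Usp18 to Ifnar2 was 6.81 ± 1.13 and 6.80 ± 0.608 (exact p = 1). The ratio of Stat2 to Irf9 was 1.32, 1.24 and 1.18 in sgControl and 1.36, 1.41 and 1.39 in sgCdk10, so that the groups did not overlap (exact p = 0.1, the smallest this design allows; adjusted over the 5 pairs 0.5). For the other 4 pairs the adjusted value was 1.

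Ratios across the receptors were added after the values had been seen and are given without a test. Ifngr1 relative to Ifnar1 was 0.735, 0.786 and 0.784 in sgControl and 0.957, 0.897 and 0.991 in sgCdk10. Ifngr2 relative to Ifnar1 was 0.502, 0.465 and 0.478 in sgControl and 0.597, 0.640 and 0.640 in sgCdk10. In every sgCdk10 library the interferon gamma receptor chains were thus higher relative to Ifnar1 than in any sgControl library. With Ifnar2 in place of Ifnar1 this held for Ifngr2 but not for Ifngr1. Counts of Ifngr1 and Ifnar2 were 338 and 95 in sgControl replicate 3 and 408 and 115 in sgCdk10 replicate 2, so that ratio overlapped between the groups. The fold changes of the interferon gamma and type I receptor chains were not tested against each other. Jak2 relative to Jak1 went from 0.985 ± 0.0102 to 1.27 ± 0.0412 (SD, n = 3), also without overlap.

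**Figure D4:**
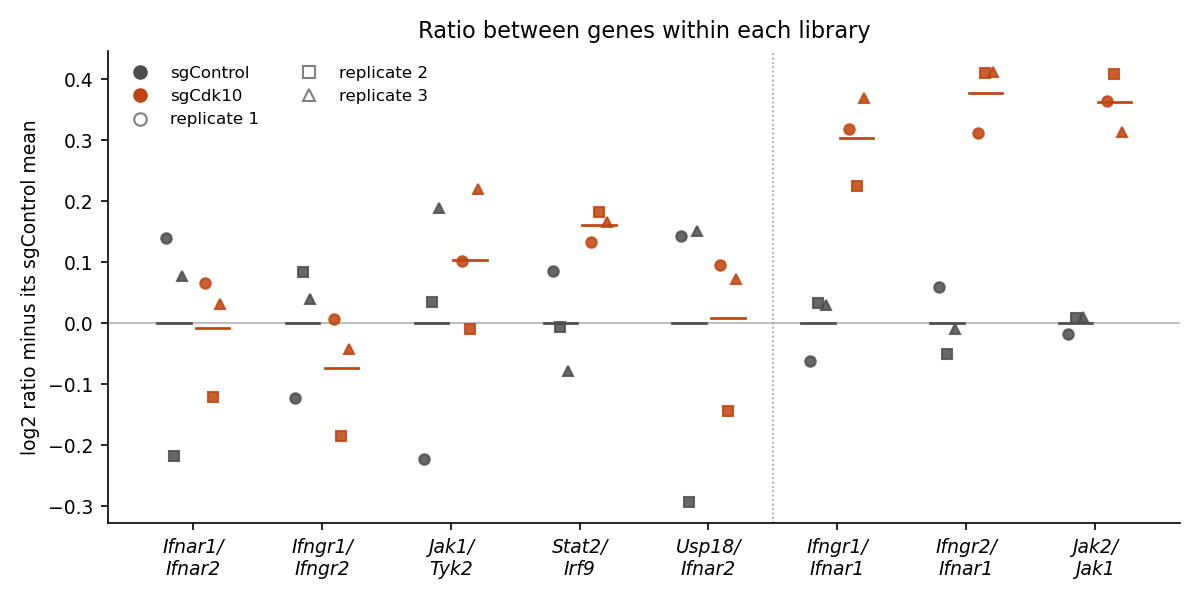
Log2 ratio of counts per kb between partner genes in each library, minus the mean of that ratio in sgControl; points are libraries, lines are group means, and the dotted line separates the 5 tested pairs (left) from the 3 pairs added after the values were seen (right). The groups overlap for 4 of the 5 tested pairs, and lie apart for Stat2 to Irf9 and for the 3 added pairs.

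Genes that encode the ligands were at or near the floor of detection. Of 21 interferon genes of types I, II and III, 17 had 0 counts in all 6 libraries, Ifng among them. The floor of 3 counts corresponds to 0.156 to 0.171 CPM per library and covers counting error only. Counts of Ifnb1 were 1, 1 and 1 against 1, 2 and 2, and Ifnz, with at most 5 counts in a library, was the highest of these genes. No difference in interferon transcripts was detectable at this depth.

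Of 17 tested inhibitors of Janus kinase and STAT signalling 8 rose, or 47.1% against 22.1% of all tested genes, and 1 fell. Their median log2 fold change was 0.09, and 0.04 with the correction for GC content and length. The suppressor Socs1, which blocks Janus kinases, rose from 5.70 ± 0.296 to 9.09 ± 0.530 CPM (SD, n = 3; log2 fold change 0.67, SE 0.11; edgeR adjusted p = 1.28e-05). Socs5 rose by 0.42, Socs7 by 0.21 (0.11 with that correction; edgeR adjusted p = 0.0402) and the ubiquitin-like modifier Isg15, which stabilises USP18 in human cells, by 0.20 on the log2 scale. The gene that fell, named after its values were seen, was Pias3, an inhibitor of STAT3, by 0.14 (edgeR adjusted p = 0.00403). The phosphatase gene Ptpn2, whose product acts on Janus kinases, likewise chosen afterwards, stood at -0.02 on the log2 scale (edgeR adjusted p = 0.834).

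Of 8 genes that act in the turnover of the IFNAR1 protein, all tested, 3 rose and 1 fell, with a median log2 fold change of 0.04. The share called, 50.0%, was near the 42.5% of all tested genes. Prkd2, a kinase that marks IFNAR1 for ubiquitination, rose from 12.0 ± 0.537 to 19.4 ± 0.934 CPM (SD, n = 3; log2 fold change 0.69, SE 0.07; edgeR adjusted p = 4.19e-08). Eif2ak3, the kinase PERK, rose by 0.28 and Fbxw11, a substrate receptor of the ubiquitin ligase, by 0.12, a call not made without sgControl replicate 2 (log2 fold change 0.10; edgeR adjusted p = 0.0599). Rbx1, a subunit of that ligase, fell by 0.20 (edgeR adjusted p = 9.66e-05). These are mRNA levels, and the IFNAR1 protein was not measured.

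Among 25 other receptor genes that signal through Janus kinases 10 were tested, 2 rose and 0 fell, a share of 20.0% against 22.1% of all tested genes. Ghr, the growth hormone receptor, rose from 49.6 ± 2.06 to 79.2 ± 2.55 CPM (SD, n = 3; log2 fold change 0.68, SE 0.04; edgeR adjusted p = 5.95e-12). Crlf2, a chain of the receptor of thymic stromal lymphopoietin, was called higher with overlapping groups (log2 fold change 0.26; edgeR adjusted p = 0.0407), and the call was made in 6 of 15 settings. It was lost without sgControl replicate 1 or 3 and without sgCdk10 replicate 2 or 3 (log2 fold change 0.17 to 0.27). Il4ra (edgeR adjusted p = 0.101) and Il12rb1 (edgeR adjusted p = 0.124) were not called. Each was called in 1 of 15 settings, Il4ra as higher and Il12rb1 as lower.

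Many of the interferon regulatory factors and interferon target genes rose. Of 10 tested interferon regulatory factors and their binding proteins 7 rose and 0 fell, or 70.0% called higher against 22.1% of all tested genes, with a median log2 fold change of 0.34. Irf7, the amplifier of type I interferon, rose by 0.35, Irf3, the factor activated by nucleic acid sensors, by 0.33, and the corepressor genes Irf2bpl and Irf2bp2 by 0.56 and 0.39 on the log2 scale. Of 30 tested targets of ISGF3 21 rose and 0 fell, or 70.0% against the same 22.1%, with a median log2 fold change of 0.22. Oas2 and Oasl2 of the oligoadenylate synthetase family rose by 0.71 and 0.32, the ubiquitin ligase gene Trim25 by 0.36 and the RNA sensor gene Ifih1 by 0.50. Of 28 targets of interferon gamma 19 were tested, 10 rose and 0 fell, or 52.6% against 22.1%, with a median log2 fold change of 0.33. The GTPase genes Gbp7, Gbp3 and Irgm1 rose by 0.65, 0.51 and 0.36, and Socs1 is also on this list. The lists leave out the members. Irf9 is therefore not counted among the regulatory factors, nor Usp18 among the ISGF3 targets, and neither was called. No gene of these lists was called with a change of 2-fold or more. Earlier results of these data on interferon-stimulated genes were known when the lists were written, and the lists share members, so these counts are a description.

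**Figure D5:**
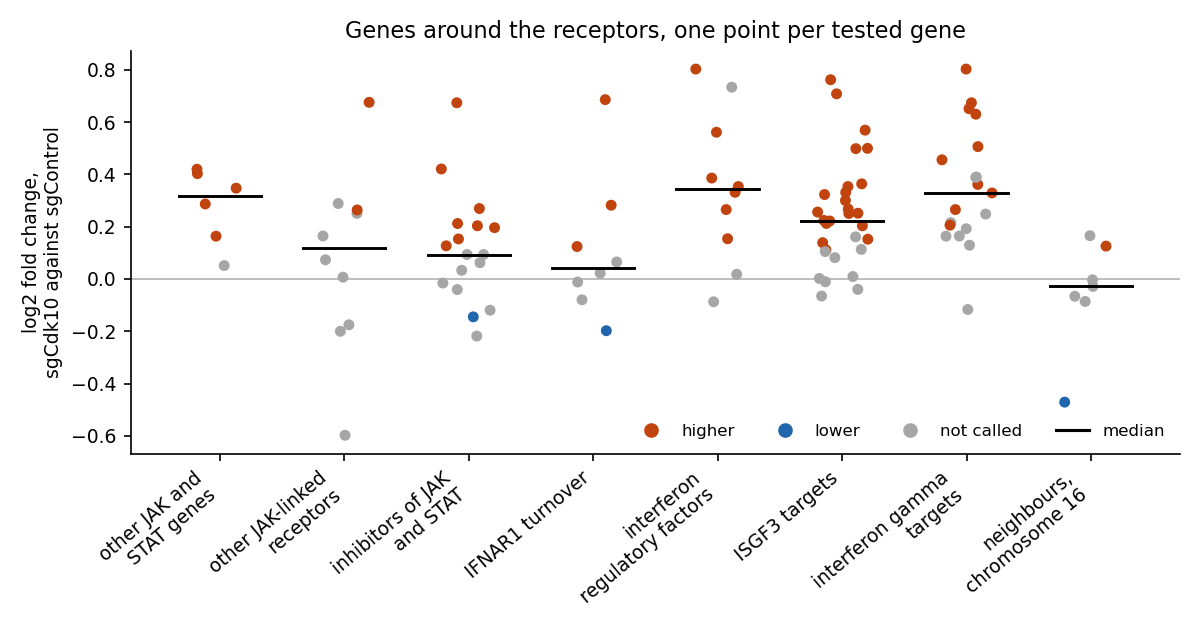
Log2 fold change of sgCdk10 against sgControl for each tested gene of 8 lists; colour gives the edgeR call at an adjusted p under 0.05 and the black line is the list median. The medians run from -0.03 for the neighbours on chromosome 16 to 0.34 for the interferon regulatory factors, against -0.0031 over all tested genes.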

How the data were processed

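RNA was measured in 6 libraries of CT26 cells, 3 per group, grouped by their titles. The authors deposited 1 table of whole-number counts per Ensembl gene, with no normalization. Tools listed in the submitters' processing notes, without roles, were featureCounts 2.0.3, HISAT2 2.2.1 and DESeq2 1.40.2, with the build mm10. Annotation release and strand setting were not given in the sources used here, so reads of overlapping genes cannot be separated with certainty. Symbols, lengths and coordinates are from GENCODE M21 (GRCm38), which lacks 4929 of the 57010 identifiers (no more than 0.236% of any library), so the counted gene models may differ from those printed.

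Genes were kept by filterByExpr (minimum count 10, minimum total 15), which left 13442, and scaled by TMM. The comparison used edgeR 4.0.16 (quasi-likelihood test, robust dispersion, group only), with Benjamini-Hochberg adjustment and a threshold of 0.05. Intervals are 95% intervals from the fold change, its SE and the t distribution. CPM used TMM-adjusted totals. The script was tested on simulated counts. Ratios were tested with scipy 1.17.1. Alternatives were DESeq2 size factors, DESeq2 1.42.0, limma-voom (limma 3.58.1), other filters, non-robust dispersion, a replicate block, a loess correction for GC content and length (span 0.5) and leaving out each library.

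The members and the 9 gene lists were chosen with earlier results of these data known. 1 gene of the list of other Janus kinases and STATs is not reported here and was left out of its counts. The rule named the 9 members, Cdk10 and the 4 tested genes with the smallest p in each list. It also named, for the members with the smallest p in each direction, the 3 genes of at least 10 CPM with the most similar profile.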

Additional observations from a re-analysis of the deposited data

How the results depend on the processing

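With all 6 libraries the number of called genes ran from 4179 with DESeq2 to 5830 with the correction for GC content and length, against 5717, and from 4791 to 6056 with 1 library left out. That correction gave 2635 higher and 3195 lower of 13242 tested, and the fit without sgControl replicate 3 gave 3023 and 3033 of 13669, against 2970 and 2747 of 13442. These are the backgrounds of the list counts below in each setting. Ifngr1 and Ifngr2 were called higher in all 15 settings, with log2 fold changes of 0.32 to 0.40 and 0.41 to 0.48. Of the other members, Irf9 was called lower with the correction for GC content and length (-0.11; adjusted p = 0.0321), and Jak1 was called higher without sgControl replicate 3. With 1 library left out, log2 fold changes ran from -0.0187 to 0.20 for Ifnar2, from -0.12 to 0.0554 for Tyk2 and from 0.0407 to 0.0859 for Jak1, with a change of sign for Ifnar2 (-0.0187 without sgControl replicate 1 and -0.0168 without sgCdk10 replicate 2) and Tyk2 (0.0554 without sgControl replicate 1 and 0.0044 without sgCdk10 replicate 3). Among other receptors that signal through Janus kinases the count of 2 was 1 with DESeq2, 1 with limma-voom, 1 without a filter and 1 with non-robust dispersion, and ran from 1 to 3 with a library left out. Without sgControl replicate 3, calls higher and lower were 1 and 1 among these receptors, 7 and 2 among inhibitors, 20 and 1 among ISGF3 targets, 9 and 0 among interferon gamma targets and 2 and 1 among neighbours on chromosome 16. With the correction for GC content and length they were 1 and 2 among these receptors, with a median of 0.02, 7 and 1 among inhibitors, 3 and 2 in IFNAR1 turnover, 7 and 1 among interferon regulatory factors, 21 and 1 among ISGF3 targets, 9 and 0 among interferon gamma targets and 1 and 2 among the neighbours, with a median of -0.06. Per kb of the longest transcript in place of merged exons, sgControl levels were 12.9 for Ifnar1, 8.79 for Ifngr1, 25.4 for Jak1, 6.53 for Tyk2, 15.4 for Stat2, 12.8 for Irf9 and 17.9 for Usp18, with Usp18 above Stat2 and Ifnar1 above Irf9; those of Ifngr2 and Ifnar2 moved by less than 1 SD.

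The replicate block gave 5481 called genes and 2 called members, and log2 fold changes of 0.37 for Ifngr1 and 0.44 for Ifngr2. It gave 6 calls among the interferon regulatory factors and 20 among the ISGF3 targets, against 7 and 21. The labels do not say that a replicate number marks a shared culture or day. After subtraction of the group means, the correlation between libraries of 1 number was 0.03, -0.06 and -0.10, and 1 of 6 libraries was closest to its own number. The depth limits what can be said of Il10rb and the interferon genes.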

Other observations

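The profile over the 6 libraries most like that of Ifngr2 was sought among 8614 genes of at least 10 CPM, by the root mean square difference in log2 CPM centred on the mean of each gene. The closest were Trmt44, a tRNA methyltransferase gene (difference 0.0252, log2 fold change 0.43), the myosin light chain gene Myl6b (0.0258 and 0.42) and Pogk (0.0350 and 0.42), against a median difference of 0.230 over all genes searched. For Irf9 the closest were the actin-severing factor gene Cfl1 (0.0073), the ATP synthase subunit gene Atp5a1 (0.0091) and Baiap2l1 (0.0096), each with a log2 fold change of -0.09, against a median of 0.0940.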
